A study of Mus musculus with 2 samples.

Results

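The cells described here are group 2 innate lymphoid cells (ILC2) from the kidneys of mice with nephrotoxic serum nephritis (NTN), an immune complex–driven model of glomerular injury. All cells that the authors placed in their cluster named ILC2 were taken, which gave 98 of the 7314 cells in the deposited table. Of these, 79 came from the WT library and 19 from the *Vsir-/-* library. Both libraries were made from C57BL/6 mice aged 8 weeks. The methods describe the mice as male. The *Vsir-/-* mice lack VISTA, an inhibitory checkpoint protein of immune cells. All animals had been immunized with 200 μg of sheep IgG emulsified in complete Freund's adjuvant and were given sheep serum against the kidney 4 days later, at 2 μL per g of body weight by the sample labels and at a higher dose by the methods. Kidneys were dissociated with liberase at 0.2 mg/mL and 37°C for 30 minutes. The labels describe the WT library as sorted CD45+ cells and the *Vsir-/-* library as kidney cells of every kind, whereas the methods describe a CD45+ sort without an exception. How many mice went into a library is not given in the sources. The paper states a somewhat larger number of cells than the table holds, and the cells behind the difference are not analysed here.

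Each genotype had 1 library. Genotype, library and sort therefore cannot be told apart, and the genotypes were compared without a test. Levels are given as unique molecular identifiers (UMIs, each standing for 1 captured transcript) and as CPM, counts scaled to 1000000 UMIs summed over the ILC2 of a library. Intervals are at the 95% level, are exact, and cover counting error only. WT ILC2 held 403519 UMIs, with a median of 4695 per cell (range, 982–14573), and *Vsir-/-* ILC2 held 145441, with a median of 5799 (range, 2541–33700). No cell barcode of an ILC2 occurred in the other library, although 5 barcodes of all cells did. *Vsir* itself had 4278 UMIs in the whole WT library and 8 in the whole *Vsir-/-* library. In ILC2 it had 8 UMIs in 8 WT cells and 0 in *Vsir-/-* cells, too few to compare.

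ILC2 are lymphocytes without an antigen receptor that live in tissues and answer to alarmins, the signals released by injured epithelium, chiefly IL-33, IL-25 and TSLP. The transcription factor GATA3 sets their identity, the IL-33 receptor chain ST2 (gene *Il1rl1*) and the IL-7 receptor keep them responsive, and their main products are the type 2 cytokines IL-5 and IL-13 and the epidermal growth factor receptor ligand amphiregulin. In the kidney they are known as a small resident population of the perivascular tissue.

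The promoters of *Il5*, *Il13* and *Il1rl1* are shown because these genes encode the main cytokines and the alarmin receptor of ILC2 and because GATA3 binds DNA at GATA-type words. The windows cover the 250 bases before the transcription start in RefSeq (mouse build GRCm38.p6) and are printed 5′ to 3′ on the strand of the gene. Capitals mark the word AGATAA or AGATAG, or the word TGATAA or TGATAG, on either strand. The *Il5* window lies at chr11:53720544-53720793 on the plus strand, that of *Il13* at chr11:53634703-53634952 on the minus strand, and the first of 2 windows of *Il1rl1* at chr1:40429320-40429569 on the plus strand.
Il5: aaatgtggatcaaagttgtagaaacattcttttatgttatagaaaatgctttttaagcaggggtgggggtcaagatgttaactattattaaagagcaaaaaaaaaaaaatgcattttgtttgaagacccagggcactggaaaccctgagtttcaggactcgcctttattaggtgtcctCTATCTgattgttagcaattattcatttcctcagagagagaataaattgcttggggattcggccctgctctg
Il13: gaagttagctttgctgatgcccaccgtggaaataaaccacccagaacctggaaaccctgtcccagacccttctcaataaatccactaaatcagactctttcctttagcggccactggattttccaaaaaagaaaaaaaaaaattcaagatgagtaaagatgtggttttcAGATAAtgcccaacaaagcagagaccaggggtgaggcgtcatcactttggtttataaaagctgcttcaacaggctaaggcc
Il1rl1: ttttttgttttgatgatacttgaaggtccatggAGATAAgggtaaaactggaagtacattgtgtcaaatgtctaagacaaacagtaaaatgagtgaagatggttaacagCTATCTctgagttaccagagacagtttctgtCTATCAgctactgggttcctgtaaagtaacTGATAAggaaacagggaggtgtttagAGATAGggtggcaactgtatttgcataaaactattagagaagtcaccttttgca
The *Il5* window held 1 such word, 72 bases before the start, and the *Il13* window held 1, 81 bases before the start. The first *Il1rl1* window held 5, at 217, 141, 110, 80 and 54 bases before the start. At least 1 of these words occurred in 26.5% of all 32851 promoter windows of the same length. Among 15 genes that led the cluster by their WT level, described further on, 14 had a window in the table and 4 had a word in it. A match of letters describes the sequence and shows no binding.

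The name of the cluster was checked first against *Gata3*, *Il1rl1*, *Rora* (a transcription factor needed for ILC2 development), *Il7r* and *Areg* (amphiregulin), the markers that came with the choice of this cluster. A UMI of *Gata3* or *Il1rl1* was present in 77 of 79 WT cells (97.5%; 91.2%–99.7%) and in 19 of 19 *Vsir-/-* cells (82.4%–100%), and both genes were found in 71 and 16 cells. In cells that should lack these transcripts, the share with either gene was 0.722% of 969 WT B cells (median depth, 3426 UMIs) and 4.58% of 524 WT neutrophils (3565 UMIs). In the *Vsir-/-* library it was 4.55% of 88 B cells (3597 UMIs) and 3.16% of 158 neutrophils (4097 UMIs). In clusters more like ILC2 the share with either gene was much higher. It was 60.9% of WT and 35.7% of *Vsir-/-* γδ T cells, and 47.0% and 47.5% of effector memory–like CD4+ T cells. At least 3 of the 5 markers were detected in 74 WT cells and in all 19 *Vsir-/-* cells. Nearly every cell of the cluster thus carried several of the label's transcripts in both libraries. The count of markers per cell was not taken in other clusters. *Il7r* and *Rora* were also in 100% and 82.6% of WT γδ T cells. Because the clusters were made from the expression of these same cells, these shares describe the cluster and are no test of it.

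When each cell was thinned to 1000 UMIs, which left out 1 shallow WT cell, *Gata3* or *Il1rl1* remained in 79.5% of 78 WT cells and in 47.4% of 19 *Vsir-/-* cells (9 cells). Without 2 *Vsir-/-* cells that carried many kidney tubule transcripts, described below, the thinned share was 52.9% (27.8%–77.0%). The interval for WT cells was 68.8%–87.8%. Outside the cluster, *Gata3* and *Il1rl1* were found together in 39 of 5391 WT cells, most often in effector memory–like CD4+ T cells (20 cells), and in 14 of 1825 *Vsir-/-* cells. None of the 39 WT cells was free of T cell transcripts (*Cd3d*, *Cd3e*, *Cd3g*, *Trac*, *Trbc1*, *Trbc2*), and 9 were free of *Cd3d* and *Cd3e*. Of the 14 *Vsir-/-* cells, 2 were free of all 6, both of them in the cluster of proliferating cells. Most ILC2 with both genes also carried such a transcript, since 16 of 71 WT and 1 of 16 *Vsir-/-* cells were free of all 6, and 62 and 14 were free of *Cd3d* and *Cd3e*.

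Transcripts of other lineages were then counted in ILC2. *Cd3d* or *Cd3e*, parts of the CD3 complex of T cells, had a UMI in 10 of 79 WT ILC2 (12.7%) and in 2 of 19 *Vsir-/-* ILC2 (10.5%), against 15.5% and 3.16% of the neutrophils and 5.26% and 0% of the B cells (0 of 88 allows up to 3.41%, taking 3 counts). For *Cd3d* or *Cd3e* the WT share thus lay between those of 2 cell types without CD3, also after thinning to 1000 UMIs (2.56%, against 7.55% of neutrophils and 1.80% of B cells). The *Vsir-/-* share lay above both, also after thinning (5.26%, from 1 cell, against 1.31% and 0%), although its interval was wide (1.30%–33.1% before thinning). *Trbc2*, a constant segment of the T cell receptor β chain, was more frequent, with a UMI in 55 WT cells (69.6%) and 15 *Vsir-/-* cells (78.9%), against 12.4% and 0.633% of the neutrophils. The 4 WT cells with the most T cell transcripts held 38–54 such UMIs each, 44.0% of the 425 in WT ILC2, against a median of 2 per cell. Of 7 genes listed for γδ T cells, *Trdc*, the δ chain constant segment, had 0 UMIs in the ILC2 of both libraries and 235 and 379 UMIs in their γδ T cells, but *Tcrg-C4*, a γ chain constant segment, had 51 UMIs in 22 WT ILC2 (27.8%) and 8 in 4 *Vsir-/-* ILC2. The list summed to 79 UMIs (196 CPM) in WT and 9 UMIs (61.9 CPM) in *Vsir-/-* ILC2, against 2056 and 4130 CPM in γδ T cells. The basophil protease gene *Mcpt8* and the regulatory T cell factor *Foxp3* were also at 0 in all 98 cells, and *Ncr1* of NK cells had 1 UMI. Other genes listed for basophils and NK cells were present. The basophil and mast cell list had 46 UMIs (114 CPM) in WT, 28 of *Hdc*, and 9 (61.9 CPM) in *Vsir-/-* ILC2. The NK cell and ILC1 list had 79 UMIs (196 CPM), 34 of *Nkg7*, and 0. For macrophages and monocytes the sums were 27 UMIs (66.9 CPM) and 95 UMIs (653 CPM), of which *Apoe* made up 2 and 81. Without the 2 *Vsir-/-* cells with many tubule transcripts the latter was 19 UMIs (199 CPM).

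The *Vsir-/-* ILC2 carried transcripts of kidney tubule epithelium. The 36 genes of the tubule list summed to 22 UMIs in the 79 WT cells (54.5 CPM), with 61 cells at 0 and no cell above 3. They summed to 2031 UMIs in the 19 *Vsir-/-* cells (13964 CPM), and every cell had at least 8, so the libraries did not overlap. One *Vsir-/-* cell with 33700 UMIs held 1290 of them, and another with 16233 UMIs held 461, whereas the remaining 17 cells held 8–41. These 2 cells accounted for 86.2% of the tubule UMIs and for 34.3% of all ILC2 UMIs of the library. Abundant members in *Vsir-/-* ILC2 were *Gpx3* (286 UMIs), *Napsa* (241), *Fxyd2* (217) and *Akr1c21* (124), and apart from *Napsa* (8 UMIs) these were at 0 in WT ILC2. Other clusters of the *Vsir-/-* library also held tubule transcripts, at 2505 CPM in γδ T cells, 4220 in NK cells and 8103 in B cells. Log2 ratios of the libraries below are therefore also given for the 17 *Vsir-/-* cells in which at most 1% of UMIs came from tubule genes (95508 UMIs, 2932 tubule CPM). Ratios in other clusters cover all of their cells, with none left out for tubule transcripts, and so match the ILC2 ratios over all cells. The part of tubule transcripts in the remaining differences was not tested.

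**Figure D1:**
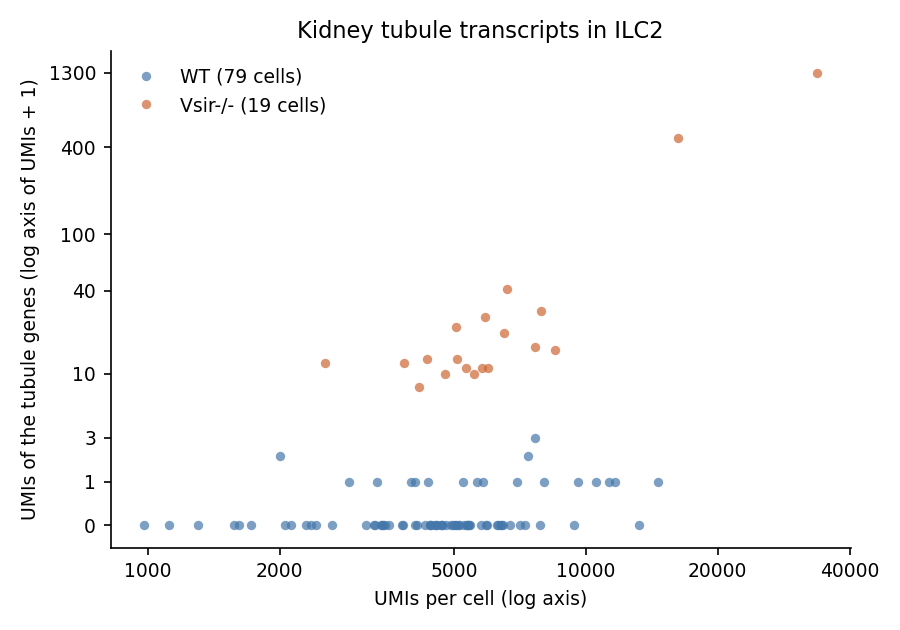
UMIs of the 36 tubule genes (y axis, log axis of UMIs + 1) against all UMIs of a cell (x axis, log axis) for each of the 79 WT and 19 Vsir-/- ILC2. All Vsir-/- cells lie at 8 UMIs or more, all WT cells at 3 or fewer, and 2 Vsir-/- cells stand apart at 461 and 1290.

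ILC2 were a small share of the cells in both libraries. They made up 1.44% of 5470 WT cells (1.15%–1.80%) and 1.03% of 1844 *Vsir-/-* cells (0.621%–1.60%), and the intervals overlapped. Because the labels give the libraries different sorts, the share was also taken among lymphoid clusters alone, where it was 1.96% (1.56%–2.44%) and 2.18% (1.32%–3.38%). The order of the libraries thus depended on the denominator. Lymphoid here rests on the authors' cluster names. In their cluster of non–effector memory–like CD4+ T cells, *Cd3e* had a UMI in 797 of 895 WT cells. The *Vsir-/-* count was 80 of 349 cells, so the lymphoid denominator of that library may hold other cells. The share among lymphoid clusters therefore does not correct for the sorts.

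Genes that led the cluster were described in WT cells by the ratio of their CPM in ILC2 to that in the next highest of the other clusters, among genes with at least 100 UMIs in WT ILC2. *Rnf128*, which encodes the E3 ubiquitin ligase GRAIL, stood highest of these, with 112 UMIs (278 CPM), 45.8 times its level in effector memory–like CD4+ T cells. *Calca*, the gene of calcitonin gene–related peptide (CGRP), was 41.0 times as high as in the same T cells, and *Csf2*, which encodes GM-CSF, was 23.9 times as high as in γδ T cells. *Il1rl1* was 10.9 times as high as in basophils, *Gata3* 6.88 times as high as in effector memory–like CD4+ T cells, and *Areg* 5.73 times as high as in γδ T cells, where all 30 UMIs lay in 1 of 46 cells. *Il5*, below the minimum with 49 UMIs, had 85.1 times its level in effector memory–like CD4+ T cells, which held 4 UMIs. A single WT cell held 37 of its 49 UMIs, 28 of 103 for *Csf2* and 43 of 118 for *Calca*, and without it the levels were 21.2, 17.7 and 26.5 times those of the next cluster. The other leading genes were *Lztfl1*, *Hs3st1*, *Phlda1*, *Stab2*, *Il2ra*, *Coro2a*, *Tspan13*, *Mdfic* and *Aff4*, from 9.93 down to 2.76 times the next cluster. *Il7r* and *Rora* were not particular to ILC2 in this sense, since WT γδ T cells had 1258 CPM of *Il7r* against 820 in ILC2 and 460 CPM of *Rora* against 600.

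**Figure D2:**
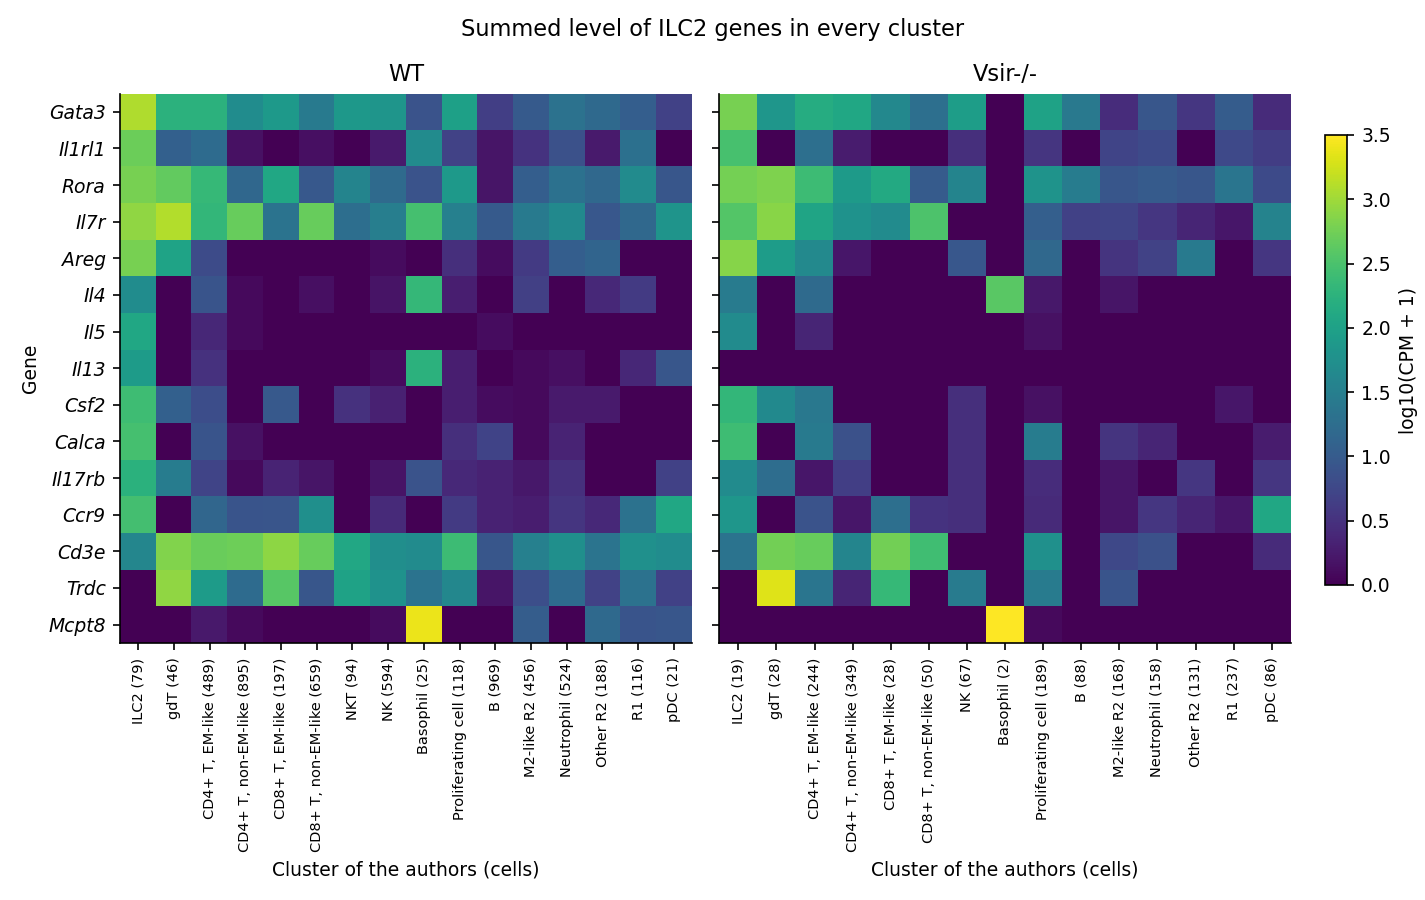
Level of ILC2 genes and of markers of other lineages (rows) in every cluster named by the authors (columns, cell number in parentheses), as log10(CPM + 1) of UMIs summed per cluster, in each library. Il5, Csf2 and Calca are brightest in ILC2, Il4 and Il13 in WT basophils, and Trdc and Mcpt8 are dark in ILC2.

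Much of what the WT library held of several mediators came from these few cells, and the shares in the *Vsir-/-* library were smaller. ILC2 supplied 49 of 55 *Il5* UMIs in the WT library (89.1%; 77.8%–95.9%) and 7 of 11 in the *Vsir-/-* library (63.6%; 30.8%–89.1%). For *Csf2* the shares were 73.0% of 141 and 37.5% of 80 UMIs, for *Areg* 70.2% of 352 and 36.2% of 290, and for *Calca* 72.8% of 162 and 15.7% of 242. These shares cover all 19 *Vsir-/-* ILC2, and for the last 3 genes the intervals of the libraries did not overlap. The intervals treat UMIs as separate draws, although single WT cells held 28 of 103 *Csf2*, 73 of 247 *Areg* and 43 of 118 *Calca* UMIs. They are therefore too narrow. The shares also depend on the other cells of each library, and the labels give the libraries different sorts. The remaining *Calca* UMIs of the *Vsir-/-* library lay mainly in proliferating cells (127 UMIs) and in effector memory–like CD4+ T cells (41 UMIs). *Il4* came mostly from other cells, with 20 of 98 and 4 of 36 UMIs in ILC2.

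Type 2 cytokine transcripts were unevenly spread among the cells. *Il5*, which recruits and sustains eosinophils, had 49 UMIs in 7 WT cells, and 1 of these cells held 37 (75.5%). In *Vsir-/-* ILC2 it had 7 UMIs in 4 cells, with at most 3 in a cell. Its log2 ratio, *Vsir-/-* over WT, came to −1.25 (−2.72 to −0.18) over all cells, −0.64 (−2.12 to 0.42) with the 17 cells and 0.038 without the highest cell of each library, so its direction rested on a single cell.

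*Il13*, the cytokine of goblet cell and fibroblast responses, had 33 UMIs in 10 WT cells, with 9 in the highest cell, and 0 UMIs in *Vsir-/-* ILC2. Taking 3 counts as the most that a count of 0 allows, its level was at least 3.96-fold lower in *Vsir-/-* than in WT ILC2 and at least 2.60-fold lower against the 17 cells. These limits count UMIs, which lay together in few cells. As a share of cells with a UMI, a count of 0 of 19 allows up to 15.8% by the same 3 counts, or 17.6% by the Clopper-Pearson interval, both above the 12.7% of WT cells that had an *Il13* UMI, so a difference in the share was not detectable at this depth. The whole *Vsir-/-* library held 0 *Il13* UMIs and the whole WT library 73, of which 26 were in basophils. Only 2 basophils were present in the *Vsir-/-* library, against 25 in the WT library.

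*Il4* had 20 UMIs in 11 WT cells and 4 UMIs in 4 *Vsir-/-* cells, with a log2 ratio of −0.72 (−2.86 to 0.73), or −0.11 (−2.25 to 1.33) with the 17 cells. *Csf2* had 103 UMIs in 24 WT cells (255 CPM), of which the highest cell held 28, and 30 UMIs in 10 *Vsir-/-* cells (206 CPM), of which 10 lay in the 2 cells with tubule transcripts, and its log2 ratio was −0.29 (−0.95 to 0.29), or −0.26 (−1.06 to 0.42) with the 17 cells. At least 1 of *Il4*, *Il5*, *Il13* and *Csf2* was detected in 38 of 79 WT cells and in 15 of 19 *Vsir-/-* cells, and 3 of them together in 4 WT cells and in no *Vsir-/-* cell. Detection was thus more frequent in the *Vsir-/-* cells, which were also the deeper ones, while the summed levels were not higher.

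*Areg* differed in its spread. It had 247 UMIs in 27 of 79 WT cells (34.2%), and the highest cell held 73, whereas it had 105 UMIs in 13 of 19 *Vsir-/-* cells (68.4%), with at most 22 in a cell. The sums corresponded to 612 CPM for WT and 722 CPM for *Vsir-/-* ILC2, a log2 ratio of 0.24 (−0.11 to 0.57). It became 0.73 (0.38 to 1.07) with the 17 cells and 1.05 with equal weight for each cell, under the 2-fold size in the former case and above it in the latter. After thinning to 1000 UMIs, *Areg* was detected in 21.8% of WT and 36.8% of *Vsir-/-* ILC2, against 0.106% of thinned WT B cells, and the intervals of the ILC2 overlapped (13.2%–32.6% and 16.3%–61.6%). Before thinning, detection was also more frequent in other cells of the *Vsir-/-* library. *Areg* was in 1 of 46 WT and 7 of 28 *Vsir-/-* γδ T cells and in 1.23% and 9.02% of effector memory–like CD4+ T cells. After thinning these shares were 2.17% and 3.57% of the γδ T cells and 0.626% and 4.56% of the CD4+ T cells. The log2 ratios of the sums were −0.31 in the γδ T cells and 2.99 in the CD4+ T cells.

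**Figure D3:**
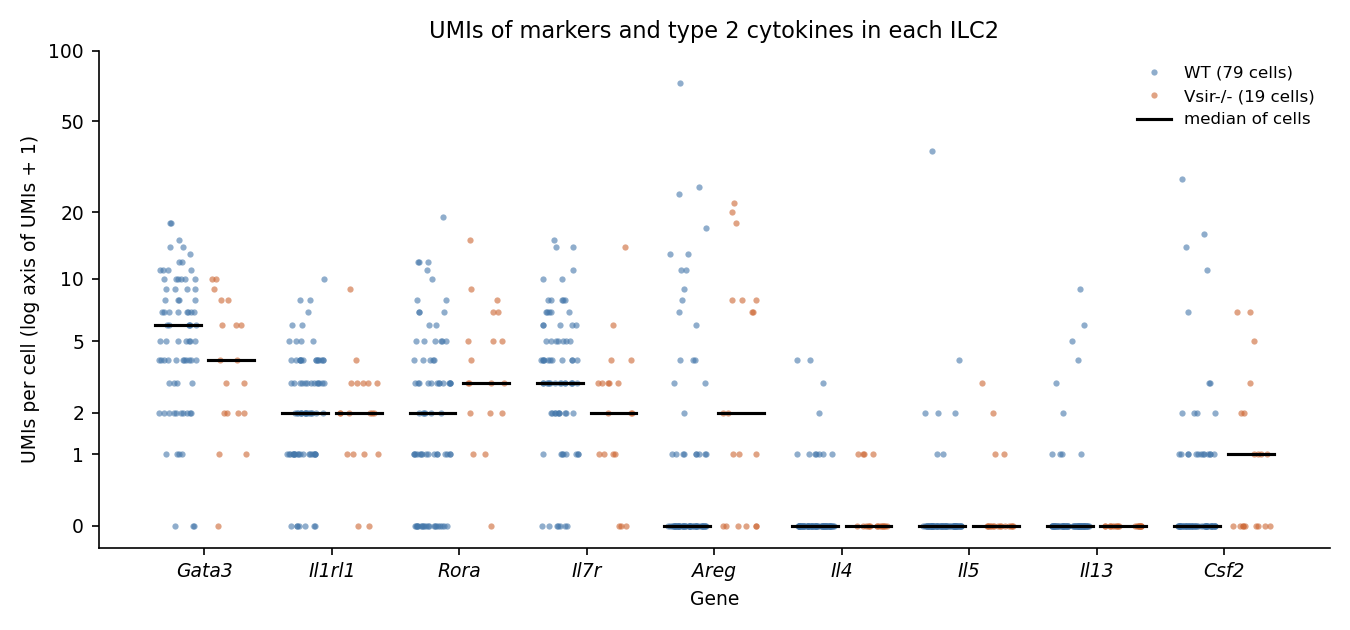
UMIs per cell (y axis, log axis of UMIs + 1) of the 5 markers and of Il4, Il5, Il13 and Csf2 in the 79 WT and 19 Vsir-/- ILC2; each point is a cell and bars are medians over cells. Gata3 is present in nearly all cells, Areg has a median of 0 in WT and 2 in Vsir-/- cells, and a single WT cell holds 37 of the 49 WT Il5 UMIs.

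The effector genes, taken as a whole list, did not move as a block. Of 26 genes on the effector list, 24 were in the table and 14 had at least 20 UMIs over both libraries, the minimum for comparison. Of these, 2 were at least 2-fold higher and 2 at least 2-fold lower in *Vsir-/-* ILC2, against 11.4% of all 3957 genes compared that were higher and 12.3% that were lower. The median log2 ratio was −0.13, against −0.11 over all genes, and became 0.30 with the 17 cells, against −0.09. *Calca* had 118 and 38 UMIs, with ratios of −0.15 (−0.73 to 0.38) and 0.30 (−0.31 to 0.84). *Furin*, a protein convertase, had 116 and 63 UMIs and ratios of 0.60 and 0.90.

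The identity markers were partly lower in *Vsir-/-* ILC2. *Gata3* had 495 UMIs in 76 WT cells (1227 CPM; median per cell, 6) and 87 UMIs in 18 *Vsir-/-* cells (598 CPM; median, 4), a log2 ratio of −1.03 (−1.38 to −0.70). With the 17 cells the ratio was −0.51 (−0.87 to −0.18), below 0 but under the 2-fold size. *Il7r* had 331 and 53 UMIs, with a ratio of −1.16 (−1.62 to −0.75), or −0.64 (−1.11 to −0.22) with the 17 cells. It was also lower in γδ T cells (−0.75) and in effector memory–like CD4+ T cells (−0.93) of the *Vsir-/-* library. *Gata3* was lower in γδ T cells (−1.35), these CD4+ T cells (−0.30) and neutrophils (−1.25). It was higher in NK cells (0.44) and in B cells (2.84, with 12 and 13 UMIs). *Il1rl1* had 211 and 44 UMIs, with a ratio of −0.78 (−1.29 to −0.32), which became −0.27 (−0.80 to 0.20) with the 17 cells. *Rora* had 242 and 85 UMIs and was level in both comparisons, at −0.03 (−0.41 to 0.32) and 0.19 (−0.24 to 0.58). The sizes for *Gata3*, *Il7r* and *Il1rl1* thus rested in part on the 2 cells with tubule transcripts, which held 5, 3 and 3 of the respective UMIs in 34.3% of the depth.

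Of 18 transcription factors listed for ILC2, 13 could be compared, of which 1 was at least 2-fold higher and 5 lower in *Vsir-/-* ILC2, against 11.4% and 12.3% over all genes, with a median of −0.53. With the 17 cells, 1 of 12 was higher and 2 were lower, against 5.81% higher and 11.7% lower of all genes compared, and the median was −0.52. This median moved least among the lists plotted, but it covers 12 instead of 13 genes. The ratios of *Bcl11b*, *Ets1*, *Id2* and *Ikzf3* each moved toward 0. *Bcl11b*, a factor that keeps ILC2 from other fates, had 152 and 25 UMIs and ratios of −1.11 and −0.75. *Ets1* had 203 and 40 UMIs (−0.86 and −0.52), and *Id2*, which holds back T and B cell programs, had 487 and 121 (−0.53 and −0.37). *Ikzf3* was among the 12 lowest genes, with 57 UMIs in 31 WT cells and 4 in 4 *Vsir-/-* cells (−2.20; −4.28 to −0.93), and had −1.60 (−3.68 to −0.32) with the 17 cells. It was also lower in B cells (−1.87) and neutrophils (−3.18) of the *Vsir-/-* library, and over the 5 other clusters the list had medians from −1.01 in neutrophils to 0.09 in NK cells.

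Receptors for alarmins and cytokines had a median log2 ratio of −0.62 over 13 genes, with 0 higher and 3 lower (11.4% and 12.3% over all genes), and −0.17 with the 17 cells, with 0 higher and 1 lower (5.81% and 11.7% over all genes). The medians of the 5 other clusters were also below 0, from −0.82 in B cells to −0.0023 in γδ T cells. *Il17rb*, the chain that binds IL-25, had 70 UMIs in 34 WT cells and 7 UMIs in 7 *Vsir-/-* cells, a ratio of −1.76 (−3.22 to −0.73), and it stayed past 2-fold with the 17 cells, at −1.36 (−2.96 to −0.27). *Il9r*, the IL-9 receptor, had 33 UMIs in 26 WT cells and 5 in 3 *Vsir-/-* cells, and its ratio of −1.13 had an interval that included 0 (−2.96 to 0.12), as did that of −0.53 (−2.36 to 0.72) with the 17 cells. *Il2ra*, the high-affinity chain for IL-2, had 163 and 39 UMIs, of which 36 lay in 1 WT cell, with ratios of −0.58 and −0.17. *Ramp1*, a subunit of the CGRP receptor, had 82 UMIs in 48 WT cells and 47 in 17 *Vsir-/-* cells, and was higher at 0.68 (0.12 to 1.20), or 1.12 (0.54 to 1.67) with the 17 cells. Its partner *Calcrl* had 12 UMIs in 12 WT cells and 0 in *Vsir-/-* cells, below the minimum for comparison. Some known ILC2 genes, such as *Ptgdr2*, *Nmur1*, *Il9* and *Il3*, were not analysed here.

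Among surface and homing molecules, *Ccr9*, the gut-homing receptor for CCL25, differed most. It had 113 UMIs in 30 WT cells (280 CPM), with 17 in the highest cell, and 10 UMIs in 5 *Vsir-/-* cells (68.8 CPM). The log2 ratio was −1.96 (−3.12 to −1.09) over all cells, −2.05 (−3.63 to −0.99) with the 17 cells and −2.26 without the highest cell of each library. WT γδ T cells had 0 *Ccr9* UMIs and WT effector memory–like CD4+ T cells 13.2 CPM. The integrin gene *Itga4* had 93 and 13 UMIs (−1.32 and −0.71), and *Ly6a*, the surface antigen Sca-1, had 548 and 82 (−1.26 and −0.92). *Ly6a* was also lower in γδ T cells (−1.35) and higher in the other 4 clusters compared, at 0.50–1.35. *Klrg1*, a marker of activated ILC2, had 47 UMIs in 22 WT cells and 21 in 8 *Vsir-/-* cells, with ratios of 0.33 (−0.51 to 1.08) and 0.94 (0.10 to 1.69). *Icos*, *Thy1* and *Cxcr6* lay within 0.5 of 0 on the log2 scale in both comparisons. Over the 11 surface genes compared, the median moved from −0.36 to 0.14 when the 2 cells were left out.

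*Rgs1* and *Rgs2*, which dampen signals of chemokine and other G protein–coupled receptors, were higher in *Vsir-/-* ILC2. *Rgs1* had 200 UMIs in 54 of 79 WT cells and 177 in 18 of 19 *Vsir-/-* cells, with ratios of 1.30 (0.996 to 1.60) and 1.71 (1.40 to 2.02). *Rgs2* had 151 UMIs in 42 WT cells and 137 in 18 *Vsir-/-* cells, with ratios of 1.33 (0.99 to 1.67) and 1.91 (1.56 to 2.25). Both genes were higher in the *Vsir-/-* library in all 5 other clusters compared (γδ T cells, effector memory–like CD4+ T cells, NK cells, B cells and neutrophils), at 0.48–2.38 for *Rgs1* and 0.36–1.51 for *Rgs2*, and the highest ratio was that of γδ T cells for both. In the 17 WT and 2 *Vsir-/-* ILC2 with a *Gata3* or *Il1rl1* UMI and no T cell transcript, the direction turned for *Rgs1* (−0.60) but not for *Rgs2* (1.27).

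**Figure D4:**
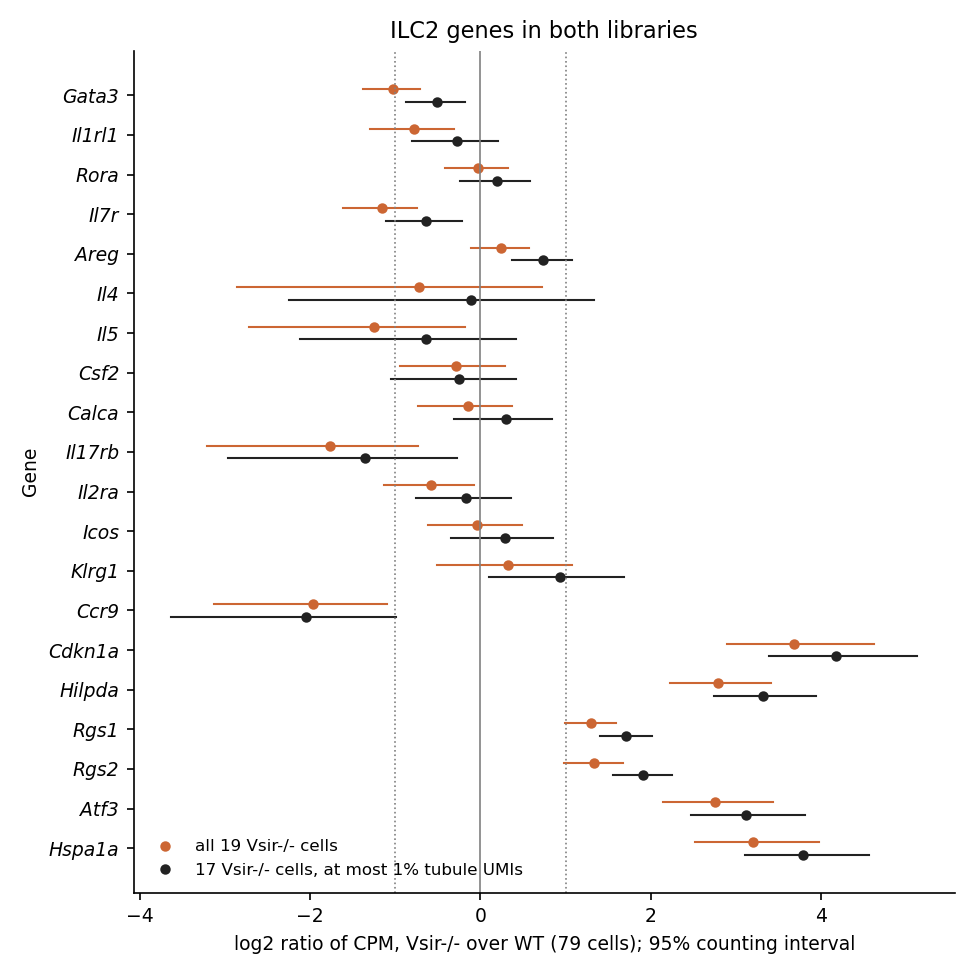
Log2 ratio of CPM, Vsir-/- over WT ILC2 (x axis), with 95% counting intervals, for named genes (rows), with all 19 Vsir-/- cells or with the 17 that had at most 1% tubule UMIs; dotted lines mark 2-fold. Ccr9 and Il17rb lie left of −1 and Cdkn1a, Hilpda, Atf3 and Hspa1a right of 1 with both sets, whereas Gata3 and Il7r move inside the 2-fold lines with 17 cells.

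Across all genes with at least 20 UMIs over both libraries, 451 of 3957 (11.4%) were at least 2-fold higher in *Vsir-/-* ILC2 and 487 (12.3%) at least 2-fold lower. This balance depended on the pseudocount of 0.5 UMIs, since 533 were higher and 103 lower with a pseudocount of 5. The same pseudocount was added to both sums before scaling. It thus weighs more in the smaller *Vsir-/-* total, and a larger pseudocount shifts ratios upward by construction. With the 17 cells, 204 of 3513 (5.81%) were higher and 411 (11.7%) lower, and 132 and 292 genes passed with both sets. The tubule list had 20 genes that could be compared, all of them higher. The 12 highest genes with all cells were led by *Napsa*, *Chpt1*, *Rida* and *Gadd45g*, and 1 *Vsir-/-* cell held 236 of 241 *Napsa* UMIs and 1 held 82 of 93 *Gadd45g* UMIs. Only *Cdkn1a* was also among the 12 highest with the 17 cells.

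*Cdkn1a*, which encodes the cell cycle inhibitor p21, had 15 UMIs in 7 of 79 WT cells and 71 UMIs in 15 of 19 *Vsir-/-* cells, with at most 10 in a cell. Its log2 ratio was 3.68 (2.90 to 4.63) over all cells and 4.18 (3.39 to 5.13) with the 17 cells. *Hilpda*, a lipid droplet protein induced by hypoxia, had 35 UMIs in 18 WT cells and 88 in 16 *Vsir-/-* cells, with ratios of 2.79 and 3.31 (2.74 to 3.94). The others of the 12 highest genes with the 17 cells were the heat shock genes *Hspa1a* and *Hspa1b*, the stress-response genes *Atf3* and *Ppp1r15a*, and *Ifrd1*, *Odc1*, *Spty2d1*, *Rrad*, *Klf4* and *Rpl13a*. Reads of the ribosomal gene *Rpl13a* can be shared with near-identical copies, so its value is uncertain.

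Some of these differences were shared by other cells of the same libraries. The 5 other clusters compared were γδ T cells, effector memory–like CD4+ T cells, NK cells, B cells and neutrophils, with all of their cells. Of the 12 highest genes with the 17 cells, 6 were higher in *Vsir-/-* cells in each of these clusters. The share of all genes with this pattern was not computed, so the count does not show an excess. *Hspa1a* was one of them, with ratios of 2.67 in γδ T cells and 2.93 in effector memory–like CD4+ T cells. In ILC2 it rested on few cells, since 6 *Vsir-/-* cells had an *Hspa1a* UMI and 2 of them held 36 and 33 of the 74 UMIs, and its ratio was −1.57 in the marker-positive cells without a T cell transcript. *Cdkn1a* was higher in 4 of the 5 clusters, from 1.39 in NK cells to 2.25 in B cells, but not in neutrophils (−0.43). *Hilpda* was higher in all 5, past 2-fold in neutrophils (1.49) and by ratios of 0.06 in B cells to 0.51 in NK cells in the others. Its levels in these *Vsir-/-* cells were 17.2–62.1 CPM, against 605 CPM in *Vsir-/-* ILC2.

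The 20 genes listed for tissue dissociation and immediate early responses had a median ratio of 0.60 in ILC2 over 17 genes, with 6 higher and 0 lower (11.4% and 12.3% over all genes), and 1.06 with the 17 cells, with 9 higher (5.81% over all genes). *Jun* had 481 and 352 UMIs (1.02 and 1.26), *Fos* 484 and 214 (0.30 and 0.73), and *Atf3* 30 UMIs in 7 WT cells and 74 in 13 *Vsir-/-* cells (2.76 and 3.11). Between the same libraries, γδ T cells, effector memory–like CD4+ T cells and NK cells had medians of 1.16, 1.35 and 0.77 for this list, whereas B cells and neutrophils had 0.04 and −0.54. *Nfkbia*, the NF-κB inhibitor induced by NF-κB itself, had 400 UMIs in WT and 299 in *Vsir-/-* ILC2 (1.05 and 1.61), and was higher in all 5 other clusters, at 0.55–1.86. The part of the tissue handling in these differences was not tested.

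Of the genes lower in *Vsir-/-* ILC2, *Phlda1* differed in direction from the other cells. This gene, induced by growth factor and antigen signals, had 249 UMIs in 55 WT cells (617 CPM) and 19 UMIs in 11 *Vsir-/-* cells (131 CPM), a ratio of −2.21 (−3.00 to −1.57), or −1.67 (−2.49 to −1.02) with the 17 cells. One WT cell held 48 of the UMIs, and the ratio was −2.16 without the highest cell of each library. In the 5 other clusters it was higher in the *Vsir-/-* library, from 0.21 in neutrophils to 1.25 in effector memory–like CD4+ T cells. *Lztfl1*, another leading gene of the cluster, had 314 UMIs in 64 WT cells and 33 in 12 *Vsir-/-* cells, with ratios of −1.76 (−2.34 to −1.26) and −1.60 (−2.30 to −1.03). It was also lower in γδ T cells (−2.02, with 22 and 3 UMIs). Between the 12 lowest genes with all cells and the 12 lowest with the 17 cells, 7 were shared.

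Metabolic lists depended on the cells with tubule transcripts. The 77 nuclear genes of the respiratory chain had a median ratio of 0.79 over all cells, with 28 higher and 0 lower (11.4% and 12.3% over all genes), and of 0.21 with the 17 cells, with 2 higher and 1 lower (5.81% and 11.7% over all genes). Between the same libraries this list also had medians above 0 in the other clusters, where no cell was left out for tubule transcripts. The matching ILC2 value is the 0.79 of all cells. The medians were 0.96 in B cells (38 of 77 higher) and 0.90 in neutrophils (31 of 77). In effector memory–like CD4+ T cells, NK cells and γδ T cells they were 0.29–0.33. Over all genes compared in these clusters, 1486 of 9094 were higher in B cells and 719 of 7197 in neutrophils. The genes of fatty acid uptake and oxidation had a median of 0.91 (9 of 20 higher and 1 lower) in ILC2 and of −0.08 with the 17 cells (2 of 17 higher). These counts are to be read against the shares over all genes in ILC2 given for the respiratory chain. Over the 5 other clusters, again with all of their cells, the fatty acid list had medians of 0.26 in NK cells to 1.34 in B cells. The 16 glycolysis genes compared had medians of −0.02 and 0.08, and the 13 genes encoded by mitochondrial DNA had 0.25 and 0.05. No metabolic list thus kept a median above 0.25 when 2 of the 19 cells were left out.

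Genes of the response to IFN-γ, the cytokine that restrains ILC2, had a median of −0.28 over 16 genes, with 0 higher and 4 lower (12.3% lower over all genes), and of 0.11 with the 17 cells, with 0 higher and 1 lower (11.7% lower over all genes). The other clusters had medians from −0.40 in neutrophils to 0.68 in B cells for this list. *Cxcl10*, a chemokine induced by IFN-γ, had 29 UMIs in 12 WT cells and 0 in *Vsir-/-* cells, at least 3.48-fold lower, or at least 2.29-fold against the 17 cells. Of the WT UMIs 9 and 6 lay in 2 cells, and the share of WT cells (15.2%) was below the 15.8% and 17.6% that 0 of 19 allows, so a difference in the share was not detectable. *Ifngr1*, a chain of the receptor, had 52 and 7 UMIs, with a ratio of −1.34 (−2.80 to −0.28), and −0.93 (−2.55 to 0.18) with the 17 cells. In the other clusters its ratio was −1.10 in γδ T cells, −0.76 in neutrophils, −0.19 in NK cells, −0.08 in effector memory–like CD4+ T cells and 0.30 in B cells. Genes for cytokine signaling and its inhibitors had medians of 0.18 and 0.49. Among them *Cish*, induced by STAT5, had 75 and 50 UMIs (0.89 and 0.99) and was higher in all 5 other clusters (0.30–2.08), and *Socs1* 66 and 9 (−1.34 and −0.89). Of the 15 checkpoint genes, 5 could be compared, with a median of −0.72, 0 higher and 2 lower (11.4% and 12.3% over all genes). With the 17 cells the median was −0.11, with 0 higher and 0 lower (5.81% and 11.7% over all genes). *Pdcd1*, *Ctla4*, *Tigit*, *Lag3* and *Havcr2* had between 0 and 8 UMIs in either library, too few to compare.

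**Figure D5:**
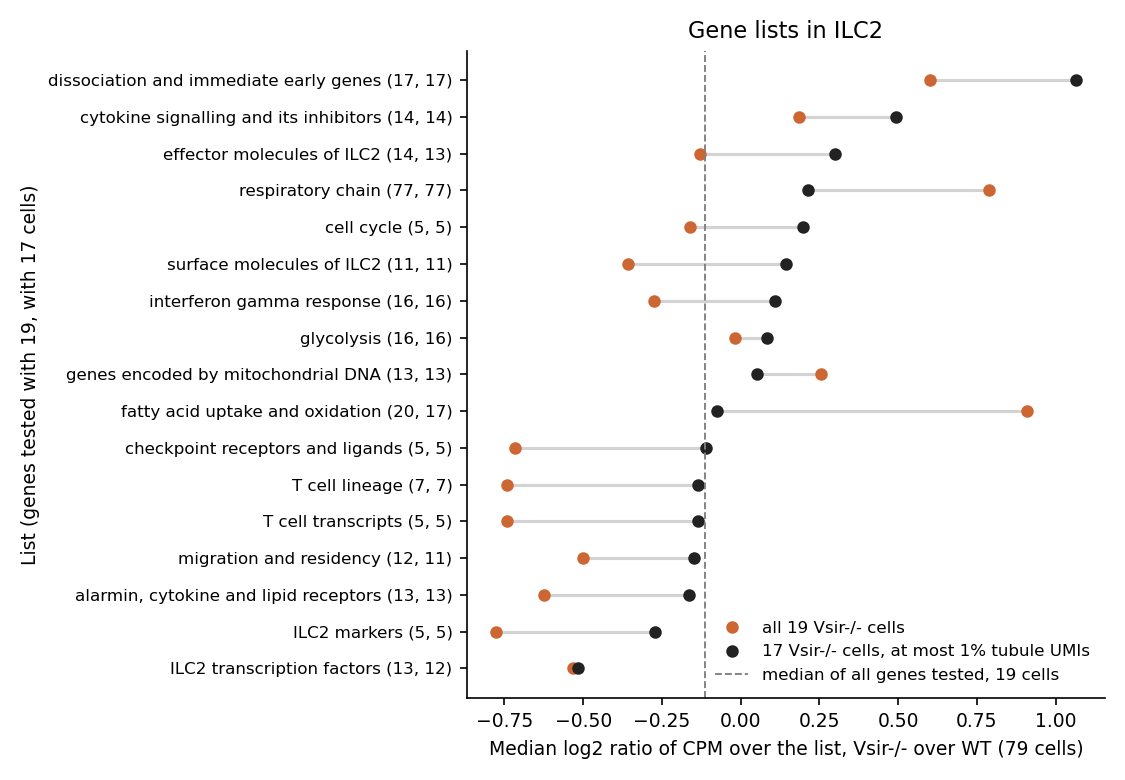
Median log2 ratio of CPM, Vsir-/- over WT ILC2 (x axis), over the genes of each list that could be compared (rows, numbers of genes in parentheses), with all 19 or with 17 Vsir-/- cells; the dashed line is the median of all genes compared. The medians of the respiratory chain and fatty acid lists move from 0.79 and 0.91 to 0.21 and −0.08. That of the transcription factors is −0.53 over 13 genes and −0.52 over 12.

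A few single cells stood out within the cluster. One *Vsir-/-* cell held 14 of 15 *Top2a* and all 7 *Mki67* UMIs of the *Vsir-/-* ILC2, both genes of dividing cells. One WT cell held 27 of 28 *Hdc* UMIs, the histidine decarboxylase gene of basophils and mast cells, and another 22 of 34 *Nkg7* UMIs, a gene of cytotoxic granules. The cell with *Hdc* also held 44 T cell UMIs (5 of *Cd3e*, 8 of *Cd3d*) and the 73 *Areg* UMIs of the highest cell, and the cell with *Nkg7* held 54 T cell UMIs (4 of *Cd3e*, 12 of *Cd3d*). Both thus carried transcripts of more than 1 lineage. Sums of these genes therefore describe single cells.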

How the data were processed

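The deposited data used here were raw UMI counts, whole numbers for 20299 genes in each cell, and the authors' table of cells with library, cluster, UMIs and mitochondrial percent. Libraries followed the 10× 3′ protocol. The submitters' processing notes name Cell Ranger (version 3.1.0), R (version 4.0.3), Seurat (version 3.2.3) and the build mm9. The authors kept genes found in at least 5 cells and cells with at least 200 UMIs and, by the deposited percent values, at most 10% mitochondrial UMIs. A step against doublets is not given in the sources used here, and none was applied.

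UMIs were summed over the ILC2 of each library and scaled to CPM. Intervals were Poisson for levels, Clopper-Pearson for shares and conditional binomial for ratios. Log2 ratios used a pseudocount of 0.5 UMIs and genes with at least 20 UMIs over both libraries, and a ratio of at least 2-fold counted as higher or lower. A count of 0 was taken to allow 3 counts. Cells are not replicates, and with 1 library per genotype no p-value was computed. Named genes were all genes of the lists, the 12 highest and 12 lowest ratios among genes with at least 50 UMIs (at least 4 per library) and the 15 leading genes with at least 100 WT UMIs, next to *Vsir* and the 5 most abundant tubule genes; genes that lead with the 17 cells alone were chosen after their values were seen. Some genes that the rule names are not reported here. The members and lists were chosen with earlier results of these data known. Depths of 403519 and 145441 UMIs set the precision. Python 3.11.15, numpy 2.4.6, scipy 1.17.1, pandas 2.3.3 and matplotlib 3.10.9 were used.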

Additional observations from a re-analysis of the deposited data

How the results depend on the processing

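The alternatives changed the cells, the depth, the weighting of cells, the minimum count, the pseudocount, the total and the centring. Leaving out the cells with over 1% tubule UMIs or those with a *Cd3d* or *Cd3e* UMI was chosen after seeing the data. Among the clusters with lymphoid names alone the ILC2 share was 1.96% in WT and 2.18% in *Vsir-/-*. After thinning to 1000 UMIs the cells with *Gata3* or *Il1rl1* were 79.5% and 47.4%. Genes at least 2-fold higher numbered 1003 of 6372 (15.7%) with a minimum of 10 UMIs, 144 of 1565 (9.20%) with a minimum of 50, 51 of 442 (11.5%) in marker-positive cells without a T cell transcript (17 WT and 2 *Vsir-/-* cells) and 204 of 3513 (5.81%) without the tubule-laden cells. Genes at least 2-fold lower in the same settings numbered 903 (14.2%), 156 (9.97%), 65 (14.7%) and 411 (11.7%), or 103 of 3957 (2.60%) with a pseudocount of 5, where 533 (13.5%) were higher. Centring on the median of all genes gave 525 higher and 393 lower. Medians moved for receptors (−0.29 without T cell transcripts, −0.17 without the tubule-laden cells, −0.95 without *Cd3d* or *Cd3e*), effectors (0.30 without the tubule-laden cells), IFN-γ response (0.34 and 0.11 in the first and second of these settings), respiratory chain (0.50 and 0.21) and fatty acid genes (−0.076 without the tubule-laden cells). The log2 ratio of *Areg* was 1.05 with equal weight for each cell, 2.35 without T cell transcripts, 1.16 when thinned and 0.73 without the tubule-laden cells, and that of *Gata3* was −0.55, −0.64, −0.43 and −0.51. *Il1rl1* was at −0.27 without the tubule-laden cells, and *Il7r* at −0.64, at −0.48 when thinned and at −1.64 without T cell transcripts. The sign turned in the 17 WT and 2 *Vsir-/-* cells without T cell transcripts for *Acadm* (−0.50), *Bax* (2.67), *Gstp1* (0.80), *Hspa1a* (−1.57), *Il5* (3.41) and *Rgs1* (−0.60), without the highest cell of each library for *Il5* (0.038), and after thinning for *Selplg* (0.66). These sets hold few cells or UMIs, and the cause was not tested. Over all named genes 294 alternative ratios kept within tolerance, 98 moved and 8 reversed. No paired analysis was possible because each genotype has 1 library.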
